A study of Arabidopsis thaliana with 45 samples.

Results

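The CG windows to which the deposited tables gave neither a location in a gene nor a transposable element (TE) were described on their own. A window is a stretch of 200 bp, and the tables list those in which the methylation of CG sites differed between a pair of groups of Arabidopsis thaliana plants. Windows with the context CpG and with N/A both for the location in a gene and for the TE were collected over the 10 tables that hold rows, and each position was counted once. This gave 495 of the 2331 CG windows listed anywhere in the series. The other 1836 windows comprised 961 classed as gene body and 622 classed as promoter, both without a TE, and those with a TE. Membership depended on the annotation columns and not on a measured level, but every window is in the tables because its difference passed the selection of the authors.

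Columbia plants were grown over 3 generations, the parental generation P0 and its offspring S1 and S2, and each generation was exposed for 14 days to γ radiation from a Cs-137 source. Groups were exposed at 30 mGy/h (γ30) or 110 mGy/h (γ110) or kept at natural background radiation as control (γ0), and the exposed S1 and S2 plants descended from plants exposed in the previous generation. The age at the start of the exposure was 7 days in the description of the series and 14 days in the labels of the samples. Rosettes were harvested directly afterwards for whole genome bisulfite sequencing, which reads unmethylated cytosines as thymines and methylated ones as cytosines, with 5 samples in each of the 9 conditions and 45 samples in all. The tables give 1 methylation level for each group, the fraction of cytosines at CG sites of the window that were read as methylated. They hold no level per sample and no coverage, so the spread between the 5 plants of a group is unknown here, no difference could be tested, and all values below are descriptions. The first-named group of a comparison is the later generation or the higher dose rate, and a window is called hypermethylated where its level was higher in that group.

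In plants, methyl groups at CG sites are copied onto the new DNA strand after replication by the methyltransferase MET1, so that CG patterns can be passed to the next generation. Many moderately transcribed genes carry CG methylation alone in their transcribed part, away from both ends, and this gene body methylation differs from the dense methylation in all contexts that silences TEs. Single CG sites of gene bodies are known to gain or lose methylation between generations in Arabidopsis also without any treatment.

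Despite their missing class, most of the windows lay in genes. Against the RefSeq annotation of TAIR10.1, 439 of the 495 windows (88.7%) overlapped a protein-coding gene, and in 436 of them this was a gene on the plus strand. A gene on the minus strand alone was overlapped by 3 windows, in AT1G35170, AT5G15537 and KASI, the overlapping part being mostly untranslated in each case. In AT1G35170 the overlap was 57 bp and the midpoint of the window lay outside the gene. Of the windows classed as gene body, on the other hand, 910 of 961 (94.7%) lay in minus-strand genes alone, whereas 475 of the 622 windows classed as promoter (76.4%) lay in plus-strand genes. Over the 566882 windows of the genome that hold a CG, 28.3% lay in plus-strand genes alone and 28.8% in minus-strand genes alone. The gene that the tables name beside a window was matched for 450 of the 495 windows. It began at a higher coordinate than the window in all 450, overlapped none of them, and began over 2000 bp away in 428, at a median of 3306 bp. The gene in which a window lay was thus the named gene in 0 of 450 cases, and the genes given below are those of the annotation, called host genes here.

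The windows printed here show the kinds of change met below, a loss or a gain at windows with 1, 2 or 3 CG sites, and the size of the difference differed with the number of CG sites. Sequences are from the plus strand of RefSeq TAIR10.1, 5′ to 3′, with each CG site in capitals.
FYPP1 (chr1:18660001-18660200): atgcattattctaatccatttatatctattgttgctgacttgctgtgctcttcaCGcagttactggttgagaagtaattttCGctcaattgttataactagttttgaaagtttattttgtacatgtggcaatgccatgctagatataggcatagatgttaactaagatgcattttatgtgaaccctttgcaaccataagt
AT5G11500 (chr5:3677601-3677800): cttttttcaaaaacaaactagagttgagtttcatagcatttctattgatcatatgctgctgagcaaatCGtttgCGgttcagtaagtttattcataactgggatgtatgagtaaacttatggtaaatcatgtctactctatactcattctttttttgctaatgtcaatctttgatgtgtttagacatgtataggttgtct
AT3G29255 (chr3:11212201-11212400): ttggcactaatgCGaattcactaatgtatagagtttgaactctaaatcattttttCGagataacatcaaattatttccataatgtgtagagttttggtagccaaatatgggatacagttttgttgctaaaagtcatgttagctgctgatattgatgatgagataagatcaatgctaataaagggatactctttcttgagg
AO (chr5:4769401-4769600): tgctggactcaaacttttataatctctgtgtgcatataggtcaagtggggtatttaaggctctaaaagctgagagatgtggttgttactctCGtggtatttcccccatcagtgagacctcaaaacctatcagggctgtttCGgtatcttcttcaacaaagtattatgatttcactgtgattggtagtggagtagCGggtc
EDR1 (chr1:2776401-2776600): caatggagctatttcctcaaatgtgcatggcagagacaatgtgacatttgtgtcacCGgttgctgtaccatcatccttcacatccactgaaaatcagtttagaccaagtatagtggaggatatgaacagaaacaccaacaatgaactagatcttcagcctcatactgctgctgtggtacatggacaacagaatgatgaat
AT3G27870 (chr3:10333601-10333800): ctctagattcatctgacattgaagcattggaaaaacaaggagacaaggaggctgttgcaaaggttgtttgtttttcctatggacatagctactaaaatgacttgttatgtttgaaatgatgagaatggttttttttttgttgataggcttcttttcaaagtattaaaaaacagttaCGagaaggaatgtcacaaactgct
The windows of FYPP1 and AT5G11500 lay in introns, that of EDR1 wholly in coding sequence, and the others across a coding exon and an intron. In FYPP1 the CG sites began at bases 55 and 82 of the window, and in AT5G11500 at bases 69 and 75. AO had sites at bases 92, 141 and 195, whereas EDR1 held 1 site at base 57 and AT3G27870 1 site at base 177.

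These windows are among the 10 listed in the most comparisons, of which 4 had 4 listings and the others were taken from the 51 with 3 listings by the largest absolute difference. A window was listed in 1 comparison in 320 cases, in 2 in 120 cases, in 3 in 51 cases and in 4 in 4 cases. Since the comparisons share groups, a window that stands apart in 1 group is listed against several others, and these counts are not read further. All 4 windows with 4 listings had a level in S2γ30 apart from that in every other group given. FYPP1, a phosphatase that acts on phytochromes, had a level of 0.0175 in S2γ30, against 0.455 in P0γ30, 0.462 in S1γ30 and 0.441 in S2γ0. In S2γ110 its level was 0.426, close to the groups other than S2γ30. AT5G11500, a coiled-coil protein, had 0.494 in S2γ30, against 0.888 in P0γ30, 0.917 in S1γ30 and 0.863 in S2γ0, and 0.933 in S2γ110. Here the level in S2γ30 was near the middle of the scale and that in the other 4 groups near its upper end.

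The remaining pair of windows with 4 listings went the other way. AO, L-aspartate oxidase of NAD synthesis, had 0.289 in S2γ30, against 0.00559 in P0γ30, 0.0216 in S1γ30 and 0.00597 in S2γ0, and 0.00286 in S2γ110. AT3G29255, annotated as a putative pentacyclic triterpene synthase, had 0.372 in S2γ30, against 0.00397 in P0γ30, 0.00985 in S1γ30 and 0.0275 in S2γ0, and 0.0216 in S2γ110. In both, the level was near 0, at most 0.0275, in the 4 groups given besides S2γ30.

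Windows with 1 CG site gave the largest contrasts. EDR1, a protein kinase that restrains defence and cell death, had a level of 0 in S2γ30, against 0.969 in P0γ30, 0.878 in S1γ30 and 0.898 in S2γ0. GF14 PHI, a 14-3-3 protein, had 0.0427 in S2γ30, against 0.843 in P0γ30, 0.903 in S1γ30 and 0.83 in S2γ0. In AT3G27870, a membrane ATPase, the reverse was seen, with 0.864 in S2γ30, against 0.00746 in P0γ30, 0.0309 in S1γ30 and 0.0182 in S2γ0. A window between genes at chr3:1064601-1064800, with 2 CG sites, had 0.82 in S2γ30, against 0.0103 in S1γ30 and 0.121 in S2γ0, and 0.039 in S2γ110.

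The group that stood apart was not always S2γ30. In YSL4, of the YELLOW STRIPE family of metal-chelate transporters, both exposed S2 groups were low, with 0.0182 in S2γ30 and 0.0171 in S2γ110, against 0.884 in S1γ30, 0.871 in S1γ110 and 0.786 in S2γ0. ATPI4K ALPHA, a phosphatidylinositol 4-kinase, was low in S1γ30 alone, at 0.00709, against 0.826 in P0γ30 and 0.759 in S1γ0. In S2γ30 the level of this window was 0.585, against 0.00709 in S1γ30.

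**Figure D1:**
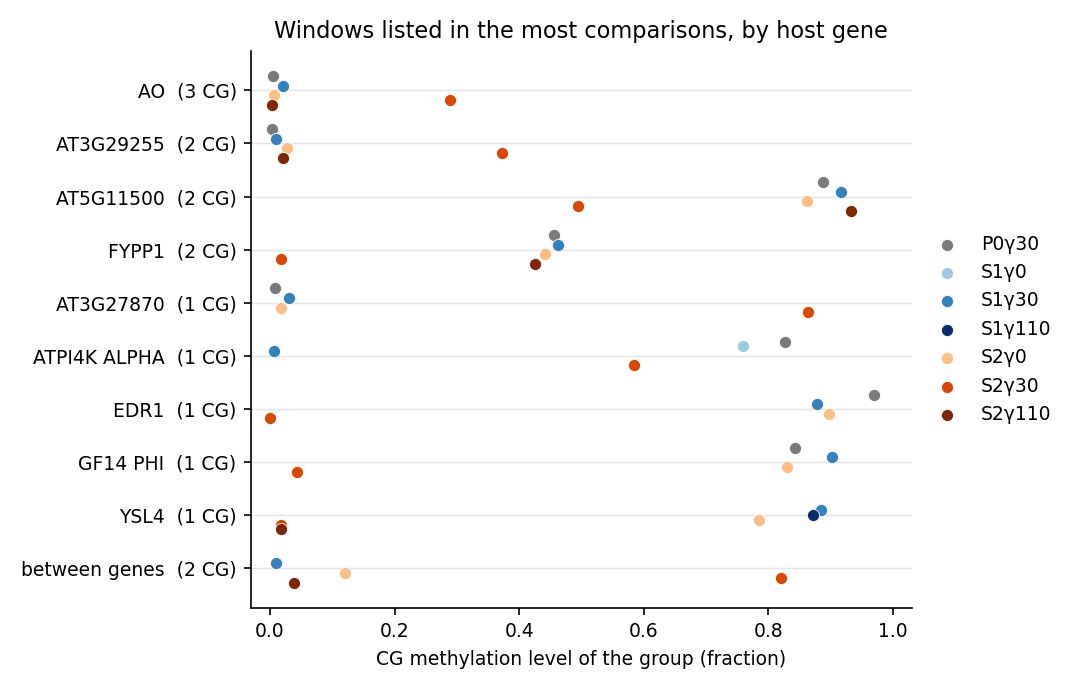
Methylation level (x axis, fraction) of each group for which the tables give one, in the 10 windows listed in the most comparisons (y axis, host gene and number of CG sites); each point is a group and there are no error bars because levels per sample are not in the tables. The windows with 3 listings were chosen by their largest absolute difference. S2γ30 stands apart from the other groups given in 8 of the windows, S2γ30 and S2γ110 together in YSL4, and S1γ30 in ATPI4K ALPHA.

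Among the plants exposed at 30 mGy/h, the S2 generation was compared with the S1 generation, and this comparison held most of the windows. For S2γ30 against S1γ30, 410 windows were listed, 218 hypermethylated and 192 hypomethylated. The authors listed 0.325% of the genome windows with a CG in this comparison, but being listed is what the rule for membership required. The hypermethylated share was 53.2%, beside 56% among all listed CG windows of the comparison and 56.8% among those with a class. The median absolute difference of the group levels was 0.3, between 0.201 and 0.935, and it exceeded 0.5 in 48 windows. In hypermethylated windows the median level was 0.565 in S2γ30 and 0.146 in S1γ30, and in hypomethylated windows it was 0.215 in S2γ30 and 0.578 in S1γ30.

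The largest increases were those of UBA 2, NOV and AT1G26580, all with 1 CG site. UBA 2, an enzyme that activates ubiquitin, had a level of 0.907 in S2γ30 and 0 in S1γ30. NOV, which is needed for leaf vein formation, had 0.928 in S2γ30 and 0.0275 in S1γ30. AT1G26580, an ELM2 domain protein, had 0.932 in S2γ30 and 0.0551 in S1γ30. The largest decreases led to a level of 0 in S2γ30 in each of 3 windows, against 0.935 in S1γ30 for AT2G47210, a myb-like transcription factor, 0.926 for RIK, a KH domain protein, and 0.92 for NUB1, a protein with a ubiquitin-associated domain. In these 6 windows, named for their large differences, the levels of S1γ30 and S2γ30 thus lay at opposite ends of the scale. They are levels of separate groups of plants, and no plant was followed.

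For S2γ30 against P0γ30, 63 windows were listed, 37 hypermethylated and 26 hypomethylated, where the authors listed 0.048% of the genome windows. The hypermethylated share of 58.7% compares with 62.5% among all listed CG windows. The median absolute difference was 0.357. Besides AT3G27870, the largest increases were in VLN4, a villin that bundles actin filaments, with 0.805 in S2γ30 and 0.0172 in P0γ30, and in a window between genes at chr3:16943001-16943200, with 0.698 in S2γ30 and 0.12 in P0γ30. This window has 5 CG sites. Besides EDR1, the largest decreases were in FBH2, a helix-loop-helix activator of the flowering gene CONSTANS, with 0.0174 in S2γ30 and 0.932 in P0γ30, and in a window between genes at chr5:1501001-1501200, with 0.038 in S2γ30 and 0.86 in P0γ30.

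For S1γ30 against P0γ30, 45 windows were listed, 19 hypermethylated and 26 hypomethylated, where the authors listed 0.0325% of the genome windows. The hypermethylated share was 42.2%, beside 49.5% among all listed CG windows and 51.8% among those with a class. The median absolute difference was 0.259, the smallest of the 5 comparisons with at least 20 of these windows. The largest increases were in CPZ, a metallo-hydrolase, with 0.7 in S1γ30 and 0.304 in P0γ30, in scpl47, a carboxypeptidase-like protein, with 0.59 in S1γ30 and 0.206 in P0γ30, and in CESA6, a cellulose synthase of the primary cell wall, with 0.925 in S1γ30 and 0.57 in P0γ30. Besides ATPI4K ALPHA, the largest decreases were in a window between genes at chr3:11749601-11749800, with 0.0157 in S1γ30 and 0.648 in P0γ30, and in EICBP.B, a calmodulin-binding protein, with 0.0207 in S1γ30 and 0.453 in P0γ30. The level of EICBP.B was 0.481 in S2γ30, and that of CPZ 0.313 in S2γ30, both near the level in P0γ30.

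The comparisons with the control of the same generation set exposed plants beside unexposed ones. According to the paper, the controls were kept in a different chamber with equal temperature and light. Exposure, chamber and line of descent thus cannot be told apart in these comparisons. For S2γ30 against S2γ0, 170 windows were listed, 93 hypermethylated and 77 hypomethylated, where the authors listed 0.136% of the genome windows. The hypermethylated share was 54.7%, beside 59.4% among all listed CG windows and 60.7% among those with a class. In hypermethylated windows the median level was 0.536 in S2γ30 and 0.0805 in S2γ0, and in hypomethylated windows it was 0.0529 in S2γ30 and 0.596 in S2γ0. The largest increases were in REV1, UBA 2 and AT3G27870. REV1, a polymerase that copies past damaged bases, had 0.938 in S2γ30 and 0.0909 in S2γ0, and UBA 2 had 0.907 in S2γ30 and 0.0992 in S2γ0. Besides FBH2 and EDR1, the largest decrease was in VPS54, a tethering factor of vesicle transport, with 0.0127 in S2γ30 and 0.847 in S2γ0.

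For S1γ30 against S1γ0, 25 windows were listed, 13 hypermethylated and 12 hypomethylated, where the authors listed 0.0228% of the genome windows. The hypermethylated share of 52% compares with 51.2% among all listed CG windows. TIL1, the catalytic subunit of DNA polymerase ε, had 0.907 in S1γ30 and 0.0148 in S1γ0. In S2γ30 its level was 0, against 0.907 in S1γ30, so that this site was methylated in 1 of the 3 groups given. AT1G12470, a zinc ion binding protein, had 0.862 in S1γ30 and 0.433 in S1γ0, and AT5G46560, which carries a Man1-Src1p domain, had 0.836 in S1γ30 and 0.453 in S1γ0. Besides ATPI4K ALPHA and the window at chr3:11749601-11749800, with 0.0157 in S1γ30 and 0.623 in S1γ0, the largest decrease was in CDS5, a CDP-diacylglycerol synthase, with 0.44 in S1γ30 and 0.891 in S1γ0.

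**Figure D2:**
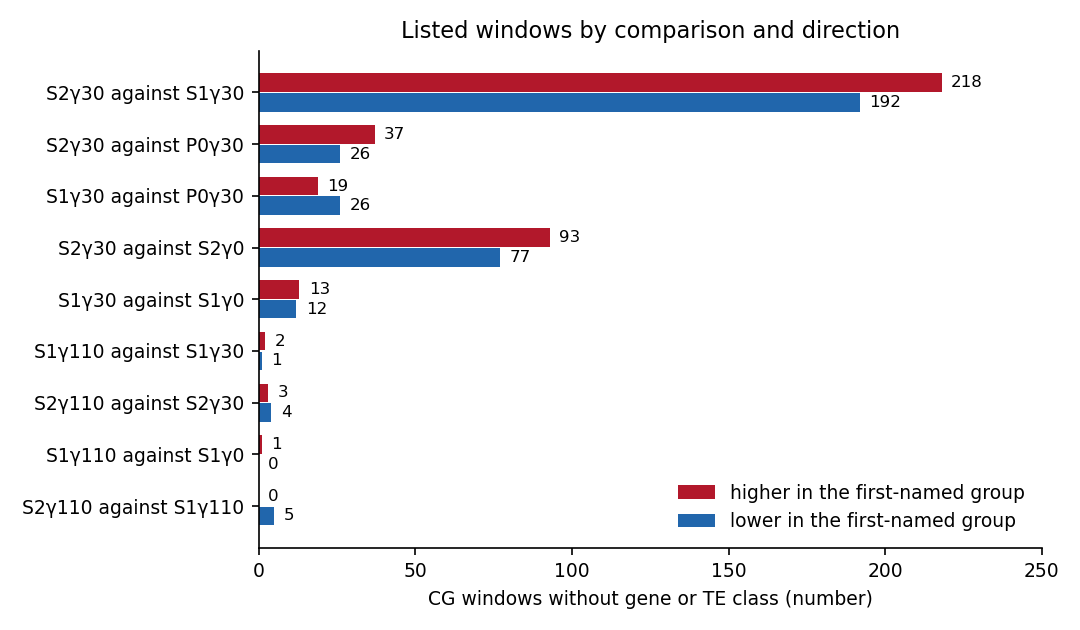
Number of CG windows without gene or TE class (x axis) in each comparison that lists any (y axis), with bars for windows higher and lower in the first-named group. S2γ30 against S1γ30 holds 218 hypermethylated and 192 hypomethylated windows, whereas no comparison with a γ110 group holds more than 5 in a direction.

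Few windows came from the comparisons with the plants exposed at 110 mGy/h. For S2γ110 against S2γ30 there were 7, 3 hypermethylated and 4 hypomethylated, where the authors listed 0.00265% of the genome windows. They comprise the 4 windows with 4 listings, the window at chr3:1064601-1064800 and a further pair. AT3G29310, a calmodulin-binding protein-like protein, had 0.0131 in S2γ110 and 0.239 in S2γ30, and NSH3, a nucleoside hydrolase, had 0.564 in S2γ110 and 0.179 in S2γ30. For S1γ110 against S1γ30 there were 3 windows, where the authors listed 0.00653%. CAS1, cycloartenol synthase of sterol synthesis, had 0.577 in S1γ110 and 0.89 in S1γ30, BMY2, a beta-amylase, had 0.595 in S1γ110 and 0.324 in S1γ30, and AT4G26600, a methyltransferase-like protein, had 0.292 in S1γ110 and 0 in S1γ30. In CAS1 and BMY2 the levels of P0γ30 (0.583 and 0.552) and S2γ30 (0.595 and 0.543) lay beside that of S1γ110.

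For S2γ110 against S1γ110 there were 5 windows, all hypomethylated, where the authors listed 0.00247%. The other 9 listed CG windows of this comparison went mostly the other way, with 6 hypermethylated and 3 hypomethylated. AGL65, a MADS box factor, had 0.0317 in S2γ110 and 0.858 in S1γ110, and YSL4 had 0.0171 in S2γ110 and 0.871 in S1γ110. ATM, the kinase that responds to DNA double-strand breaks, had 0.572 in S2γ110 and 0.907 in S1γ110. AT4G34310, a hydrolase-like protein, had 0.00806 in S2γ110 and 0.301 in S1γ110, and also 0.00654 in S2γ30 against 0.327 in S1γ30. A window between genes at chr2:16363801-16364000 had 0.0412 in S2γ110 and 0.362 in S1γ110. For S1γ110 against S1γ0 there was 1 window, where the authors listed 0.000353%, in AT3G06530, an ARM repeat protein, with 0.62 in S1γ110 and 0.315 in S1γ0. None of the windows listed for S2γ110 against S2γ0 lacked a gene and TE class.

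The levels were not spread evenly over the scale, and where they gathered differed with the number of CG sites in the window. Windows with 1 CG site numbered 42, with 2 sites 108, with 3 sites 163, with 4 sites 98, and with 5 to 11 sites 84. In windows with 1 site, 42.9% of the 112 group levels were under 0.15, with a median of 0.0164, and 44.6% were at 0.6 or above, with a median of 0.855. The 12.5% in between had a median of 0.328. In windows with 2 sites, 37.1% of the 291 group levels were under 0.15, 39.5% were between 0.3 and 0.6 with a median of 0.441, and 17.2% were at 0.75 or above with a median of 0.873. Only 10 levels lay between 0.15 and 0.3 and 8 between 0.6 and 0.75. In windows with 3 sites, counted in equal steps of 0.1 over the 405 group levels, 89 were under 0.1, 79 between 0.2 and 0.3, 70 between 0.5 and 0.6 and 25 at 0.9 or above, but 3 between 0.1 and 0.2, 10 between 0.4 and 0.5 and 8 between 0.7 and 0.8. In windows with 4 sites, 48 of the 232 levels were between 0.4 and 0.5 and 45 between 0.6 and 0.7, but 9 between 0.5 and 0.6. Levels of the single sites were not analysed here.

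**Figure D3:**
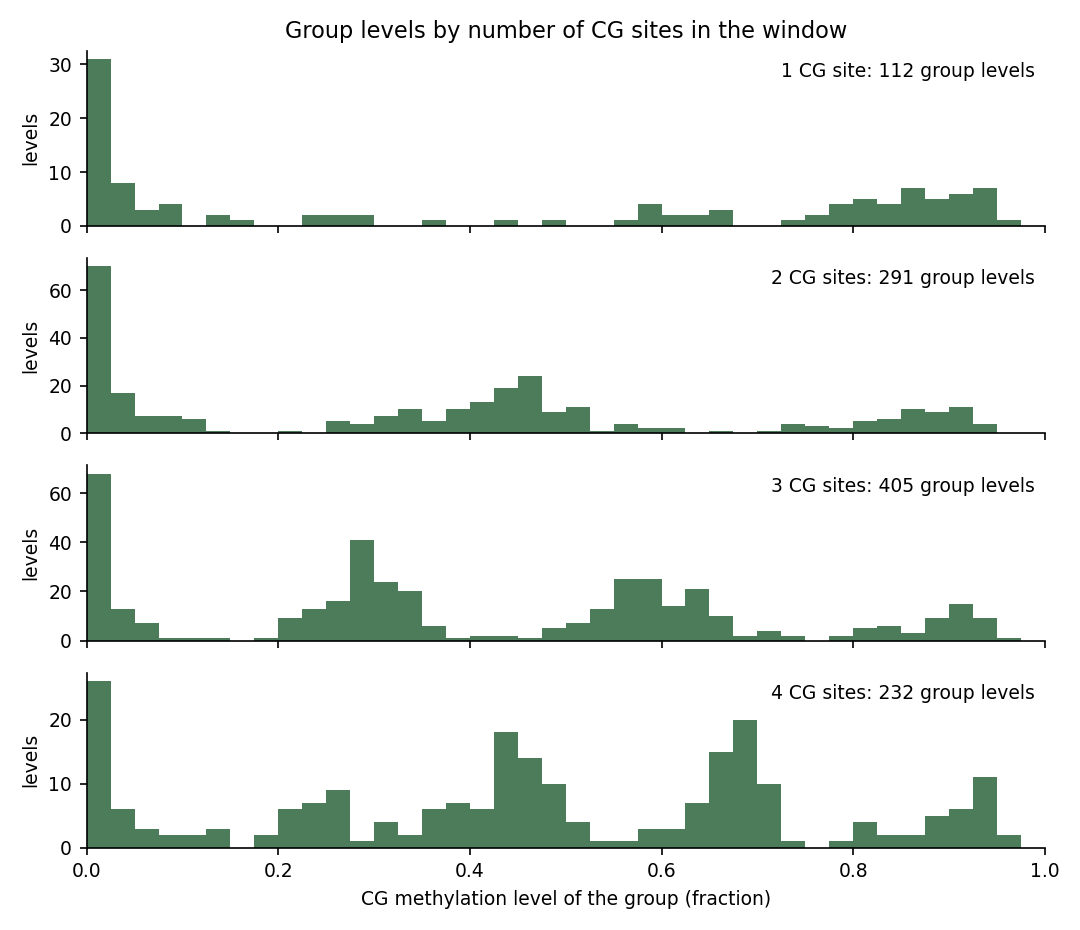
Distribution of the group methylation levels (x axis, fraction, in bins of 0.025) in windows with 1, 2, 3 and 4 CG sites, with the number of group levels on the y axes. The levels gather at both ends for 1 site and around 0.44 and 0.87 besides the lower end for 2 sites, with 10 and 8 of 291 levels in the gaps, and for 3 sites 3, 10 and 8 of 405 levels lie between 0.1 and 0.2, 0.4 and 0.5, and 0.7 and 0.8.

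The listed differences were smaller in windows with more sites. The median absolute difference was 0.794 for windows with 1 site, 0.405 for 2 sites, 0.275 for 3 sites, 0.251 for 4 sites and 0.253 for 5 or more sites. Multiplied by the number of sites, the difference had a median of 0.794, 0.81, 0.824, 1 and 1.65 in the same order. A value between 0.7 and 1.1, here taken as about 1 site, was found for 452 of the 729 differences (62%), and for 188 of the 241 differences in windows with 3 sites (78%). Over 1.1 lay 174 of them, 95 of these in windows with 5 or more sites. The listing sets a bound here, since the threshold of 20% amounts to 0.2 of a site in windows with 1 site, 0.4 with 2, 0.6 with 3, 0.8 with 4 and 1 with 5. Smaller changes could not be listed, which raises these products in windows with more sites, and the share between 0.7 and 1.1 is in part fixed by it. Under 0.7 lay 103 differences, which windows with 4 or more sites could not show. Among the other listed CG windows, 50.7% of the 2544 differences lay between 0.7 and 1.1, and 33.9% were above, beside 23.9% of the differences of the windows without class. Among those classed as gene body without a TE, the shares were 59.3% and 28.9%, nearer to the windows without class.

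**Figure D4:**
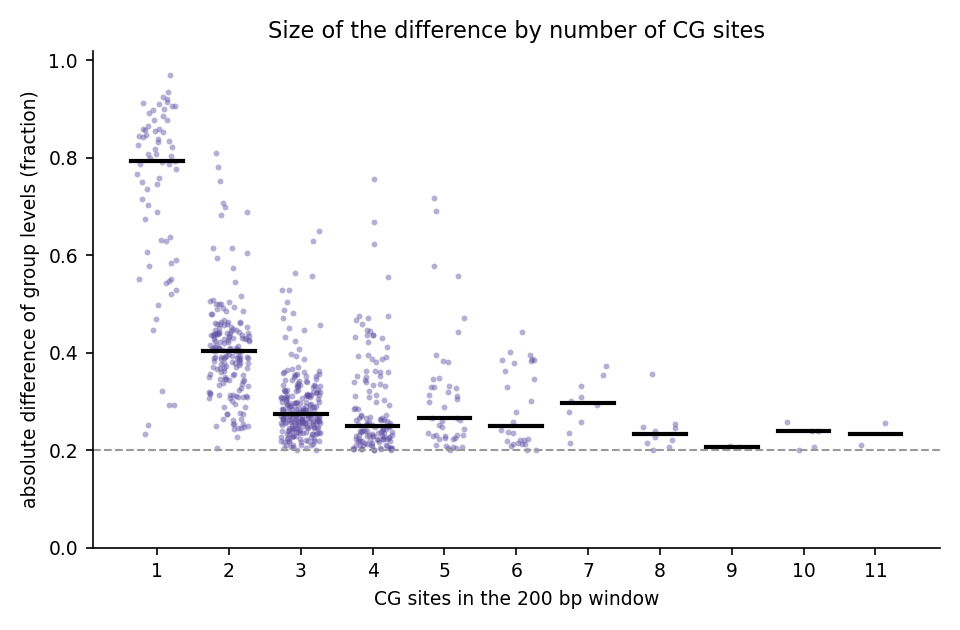
Absolute difference of the group levels (y axis, fraction) against the number of CG sites in the window (x axis, points spread sideways for legibility), with 1 point per window and comparison, 729 in all. Black lines mark medians, 0.794, 0.405, 0.275 and 0.251 for 1 to 4 sites, and the dashed line marks the listing threshold.

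Windows with 1 to 4 CG sites made up 83% of the windows without class, beside 74.5% of the other listed CG windows, 74.3% of those classed as gene body and 55.4% of the genome windows that hold a CG. GC content had a median of 38%, beside 37.5% in the other listed windows. Among the windows with the most CG sites, ABCB2 with 11 and SWI2, ATSYTF and AT3G27325 with 10 changed by little over the threshold. ABCB2, a transporter of the ABC family, had 0.0159 in S2γ30 and 0.271 in S2γ0, and SWI2, a chromatin remodeler of the SNF2 family, had 0.486 in S2γ30 and 0.246 in S1γ30. AT3G27325, a hydrolase, had 0.605 in S2γ30 and 0.365 in S1γ30, in a window of which the larger part is untranslated. ATSYTF, a C2 domain protein, had 0.323 in S1γ30 and 0.523 in P0γ30. Its absolute difference of 0.2 was the smallest of all 729, and no window below the threshold is in the tables.

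Levels near 0 in at least 1 group were about as common as among the other listed windows. In 227 of the 495 windows (45.9%) at least 1 group given had a level under 0.1, beside 47.4% of the other listed windows, and 52 windows (10.5%) also had a level over 0.5 in another group. The share with a level under 0.1 was 92.9% for windows with 1 CG site, 63% for 2 sites, 40.5% for 3 sites, 30.6% for 4 sites and 28.6% for 5 or more. In 84 windows every group given was over 0.5. Per group, the median level was 0.417 over 107 windows for P0γ30, 0.422 over 26 for S1γ0, 0.372 over 431 for S1γ30, 0.415 over 170 for S2γ0 and 0.418 over 471 for S2γ30. It was 0.595 over 9 windows for S1γ110 and 0.0354 over 12 for S2γ110, which rest on the few windows of those comparisons. A group has a level for a window only where that window is listed against it, so these medians cover different windows.

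The lower end of the scale was not the same in all groups. Among levels under 0.1, the median was 0.0426 in S2γ0 (51 windows), against 0.0142 in S2γ30 (103 windows), 0.00981 in S1γ30 (106 windows) and 0.00524 in P0γ30 (27 windows). A level under 0.05 was held by 58.8% of these windows in S2γ0, 94.2% in S2γ30, 89.6% in S1γ30 and 96.3% in P0γ30. Levels over 0.5 in windows with 1 site rest on few windows, which differ between groups. Their median was 0.789 in S2γ0 (14 windows), 0.805 in S2γ30 (13 windows), 0.884 in S1γ30 (17 windows) and 0.851 in P0γ30 (6 windows). The part of bisulfite conversion or coverage in this was not tested. Where a window had levels in groups that no table compares, they were close. S2γ0 and P0γ30 differed by a median of 0.0229 in 49 windows, and by 0.2 or more in 0, and S2γ0 and S1γ30 differed by a median of 0.0263 in 116 windows, and by 0.2 or more in 1. These windows were listed for the distance of S2γ30 or S1γ30 from other groups, so that the closeness comes in part from how they were listed. Where a window is listed in several tables, the level of a group was the same in each, for all 174 such levels.

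Within plus-strand genes the windows lay in the middle. The midpoint of a window was at a median of 44.8% of the gene length from the transcription start, with the middle 50% of windows between 31.6 and 61.2%, and 377 of 436 windows (86.5%) lay between 20 and 80%. Within 500 bp of the start there were 3 windows. The windows classed as gene body in minus-strand genes had their median at 60.5%, with 75.4% between 20 and 80%, and those classed as promoter in plus-strand genes at 71.2%. The median distance from the start was nearly the same, 1966 bp for the windows without class, 2006 bp for those classed as gene body and 2054 bp for those classed as promoter. The distance to the gene end differed, with medians of 2454, 1311 and 912 bp. Most windows without class lie over 2000 bp before the next gene start, which bears on their distance to the end of a plus-strand gene.

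**Figure D5:**
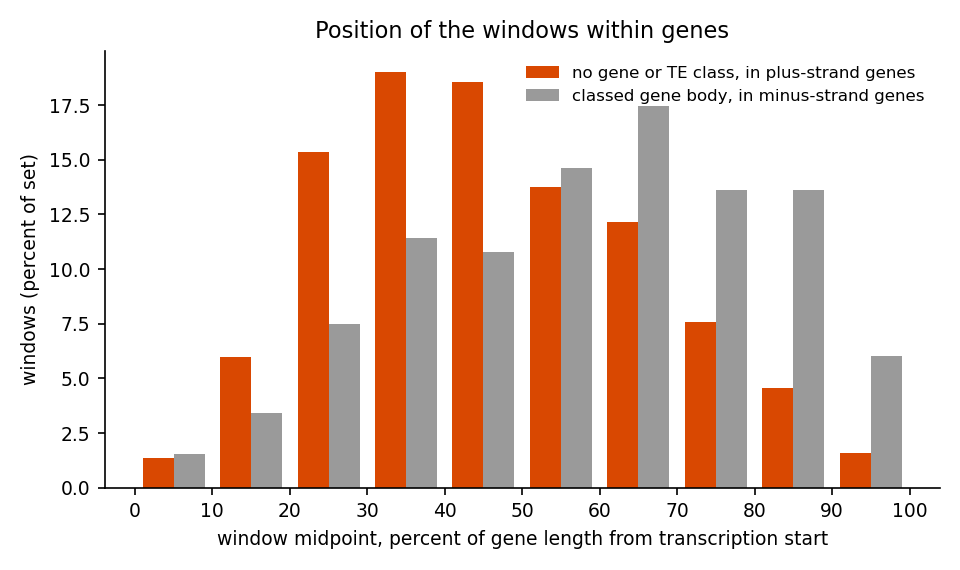
Position of the window midpoint as percent of the gene length from the transcription start (x axis, in steps of 10%) for 436 windows without class in plus-strand genes and 910 windows classed as gene body in minus-strand genes, as percent of each set (y axis). The windows without class peak between 30 and 40% and the classed ones between 60 and 70%, with medians of 44.8 and 60.5%.

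Coding sequence was overlapped by 398 of the 436 windows in plus-strand genes (91.3%), and 56.7% of the bases of these windows were coding, 40.8% intronic and 2.48% untranslated. Over the whole length of the 391 plus-strand host genes the shares were 49.8% coding, 36.9% intronic and 13.3% untranslated. Of the 1474 CG sites within the host genes, 1078 were in coding exons (73.1%), 366 in introns and 30 in untranslated parts. Hypermethylated and hypomethylated windows of S2γ30 against S1γ30 had nearly the same place, with medians of 44.7 and 44.4% of the gene length, and 72.1 and 74.1% of their CG sites in coding exons.

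In all, 394 host genes were found, 352 with 1 window, 39 with 2 and 3 with 3. They were long, with a median of 4527 bp beside 2078 bp for all 27444 protein-coding genes and 2964 bp for the 14444 genes of at least 2000 bp. A length of 5000 bp or more was reached by 173 host genes (43.9%), beside 5.97% of all protein-coding genes. These contrasts in length are in part set by how the windows were collected. Lying over 2000 bp before the next gene start, as most windows without class do, leaves little room for short plus-strand genes. A long gene also holds more windows that could be listed. Whether host genes are longer than genes matched for both was not tested. A listed CG window that has a class was also held by 20 host genes (5.08%). No share over all genes is given beside this count. Windows classed as gene body lay nearly all in minus-strand genes, whereas 391 host genes are on the plus strand, which bears on it.

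Some host genes held windows of both directions. Of the 30 host genes with more than 1 window listed for S2γ30 against S1γ30, 15 had windows in both directions, in a comparison where 53.2% of the windows were hypermethylated, so that a share of this size is no sign that windows of a gene move together or apart. In GLT1, the NADH-dependent glutamate synthase, 3 coding windows within 1800 bp had 0.587, 0.278 and 0.663 in S2γ30, against 0.376, 0.512 and 0.333 in S1γ30 in the same order. AT1G05790, a lipase-like protein, had 0.417, 0.452 and 0.912 in S2γ30, against 0.695, 0.703 and 0.681 in S1γ30. The windows of PRT6, a ubiquitin ligase of the N-degron pathway, were listed in different comparisons. The first was at 0.879 in S2γ30 and 0.667 in S2γ0, the second at 0.477 in S2γ30 and 0.887 in S2γ0, and the third at 0.369 in S1γ30 and 0.629 in P0γ30.

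γ radiation breaks DNA, and plants answer with a set of sensing and repair proteins. A list of 64 genes of the DNA damage response and repair was examined, together with a list of 38 genes of DNA methylation and demethylation, MET1 among them. These are the genes matched by symbol, for 66 of 75 names on the repair list and 38 of 40 on the methylation list. Of the matched methylation genes 0 were host genes and of the matched repair genes 4 (6.25%), beside 1.44% of all protein-coding genes. No account was taken of gene length or strand. Nearly all host genes are on the plus strand, where 20 of the 38 methylation genes and 33 of the 64 repair genes lie. Listed CG windows with a class were held by 5 of the methylation genes and 10 of the repair genes. These counts are small and are not read further. AT4G14970, annotated as fanconi anemia group D2 protein, is a host gene as well, with 1 hypermethylated window. The repair list holds the name FANCD2, but this gene was not among those matched and is not counted here. ATM, with 27265 bp the longest host gene, held a window in an intronic part at 0.463 in S2γ30 and 0.897 in S1γ30, besides the one listed for S2γ110 against S1γ110. MRE11, which processes broken DNA ends, had 0.588 in S2γ30 and 0.19 in S1γ30, in an intron. LIG6, a DNA ligase, had 0.0397 in S2γ30, against 0.897 in S1γ30 and 0.777 in S2γ0. REV1 had a second window at 0.00877 in S2γ30 and 0.895 in S1γ30, 3200 bp from the first, which was at 0.938 in S2γ30 and 0.233 in S1γ30. The 6 windows of these 4 genes thus comprised 2 hypermethylated and 4 hypomethylated ones.

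By words in the annotated products, kinases were the largest group examined, with 29 host genes (7.36%, beside 7.6% of all protein-coding genes of at least 2000 bp). Their windows were hypermethylated in 14 and hypomethylated in 14 cases for S2γ30 against S1γ30. The groups follow words in the product names and not function. ABCB2, SWI2 and PRT6, named above as a transporter, a chromatin remodeler and a ubiquitin ligase, are not counted in those groups. RPN8A, a non-ATPase subunit, is counted with the transporters. By these words transporters numbered 15 (3.81%, beside 4.24%), ubiquitin and F-box genes 17 (4.31%, beside 3.59%), and transcription factors 15 (3.81%, beside 4.76%). Genes with words of RNA and helicases numbered 17 (4.31%, beside 4.41%). Cytoskeleton and vesicle genes numbered 7 (1.78%, beside 1.9%) and enzymes of carbohydrates and the cell wall, including other hydrolases, 19 (4.82%, beside 5.79%). Genes with words of chromatin numbered 12 (3.05%, beside 2.24%). MMT, AT2G19870 and AT4G26600 are counted here by the word methyltransferase, and their product names mention neither chromatin nor histones. For S2γ30 against S1γ30 the group held 5 hypermethylated and 8 hypomethylated windows, in a comparison where 53.2% of the windows were hypermethylated. PKL and SUVR2, of this group, were chosen after their values were seen, and both were hypomethylated. PKL, a chromatin remodeler of the CHD3 type, had 0.0105 in S2γ30, against 0.921 in S1γ30 and 0.819 in S2γ0. SUVR2, a SET domain protein, had 0.0111 in S2γ30 and 0.296 in S1γ30. HAC5 and PKR2 went the other way, with 1 hypermethylated window each. HAC12, a histone acetyltransferase, had windows in both directions, with 0.396 and 0.907 in S2γ30, against 0.897 and 0.147 in S1γ30.

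Outside protein-coding genes lay 56 windows (11.3%), beside 41.4% of the genome windows that hold a CG and 19.3% of the other listed CG windows. Of the 218029 genome windows with a CG that lie outside minus-strand genes and over 2000 bp before the next gene start, a position like that of most windows without class, 62.3% lay outside genes and 37.7% in plus-strand genes. Windows with a TE could not be left out of this count. No annotated gene of any type was overlapped by 50 of them, and a transcribed pseudogene by 4. The nearest protein-coding gene was at a median of 1960 bp, and within 2000 bp for 28 windows. For S2γ30 against S1γ30, 25 of these windows were hypermethylated and 17 hypomethylated. A level under 0.1 in a group was held by 39 of the 56 (69.6%), beside 45.9% of all 495, and 17 (30.4%) also had a level over 0.5 in another group, beside 10.5%. Their median absolute difference was 0.427.

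The windows were spread over all chromosomes, with 123 on chromosome 1, 91 on chromosome 2, 79 on chromosome 3, 85 on chromosome 4 and 117 on chromosome 5. Chromosome 3 held 16% of them, beside 19.8% of the genome windows that hold a CG, and chromosome 1 held 24.8%, beside 25.4%. In the gene-poor regions around the centromeres lay 33 windows (6.67%), beside 8.55% of the other listed windows and 18.2% of all windows with a CG. Neighbouring windows were 130000 bp apart at the median, and 7 pairs were directly adjacent.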

How the data were processed

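The authors mapped the bisulfite reads to TAIR10 with CLC Genomics Workbench in a non-directional manner, called methylation per context with a site coverage of at least 5 in at least 3 samples, and corrected p-values in R 3.5.0. They kept windows differing by 20% or more at a p of 0.05 or less, and the nearest gene was added with CLC and the TE with bedtools. Levels were deposited as a fraction per group. Of the 18 tables, 8 hold no rows. These are the comparisons within P0, those between generations at γ0, and those of S1γ110 and S2γ110 with P0γ110. The columns with the authors' own difference, status, p-value and adjusted p-value were not used. Depth is unknown here, since the tables give no coverage.

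Differences were computed from the group levels, and no test was run. Positions were compared with the RefSeq sequence and annotation of TAIR10.1. All listed windows lie within the chromosome lengths, and 0 listed CG windows lack a CG there, beside 4.84% of all windows. A window lay in a gene by an overlap of at least 1 bp, names were matched within 50000 bp, and gene-poor regions were runs of 500000 bp bins around the bin with least coding sequence. Named were the 3 largest increases and decreases per comparison with at least 20 windows and every window of the others, the 10 windows listed most often, host genes with 3 windows or in a gene list, and the 5 windows with most CG sites, of which 1 is not reported here. Members, lists and rules were chosen with earlier results of these data known. Python 3.11.15, NumPy 2.4.6 and SciPy 1.17.1 were used, and counting was tested on simulated data.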

Additional observations from a re-analysis of the deposited data

How the results depend on the processing

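Restricting the 495 windows to an absolute difference of at least 0.3 left 251, and raised the median absolute difference to 0.408 for S2γ30 against S1γ30 and to 0.34 for S1γ30 against P0γ30. In S2γ0 the share of windows under 0.1 was 30%, and 17.6% were under 0.05. The other 47 values, from the remaining results at a difference of at least 0.3 and the remaining groups at a level under 0.05, and from counting every entry, joining neighbours, requiring at least 2 CG sites, using windows in genes only, an overlap of at least 100 bp, genes of every type, or the table with the largest difference, stayed within a factor of 1.5 for counts and within the exact binomial 95% interval or the middle 50% of windows for shares and medians. These ranges take no account of the spread between samples or of ties between windows. No paired analysis was possible because the tables hold no sample columns, and leaving out replicates could not be run for the same reason. Depth behind a level is unknown here.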
